A study of Pyrus pyrifolia with 6 samples.

Results

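The genes described here encode enzymes of glycolysis from phosphofructokinase to enolase in the pulp of pear fruit, with and without a boron application. They are 9 genes, selected by name from a deposited table of 4291 genes that the authors had called different between the groups. A second table gives a score to 42194 genes, the 4291 included. Among the 4291 are 12 further genes of these enzyme steps that are not part of the 9. The tissue was fruit pulp of Akibae pear (Pyrus pyrifolia) from an orchard, sampled as 3 libraries of fruit with boron application (boron) and 3 of control fruit (CK, here control). The labels state neither dose, timing and form of boron nor the age of the fruit, and they do not tie libraries to single trees. Any spread between libraries may therefore be technical in part.

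Glycolysis splits sugar phosphates in the cytosol and yields ATP, NADH and finally pyruvate, and plastids of plants run a parallel set of several of its steps. Phosphofructokinase commits fructose 6-phosphate to the pathway, aldolase cleaves the doubly phosphorylated sugar into triose phosphates, and triosephosphate isomerase interconverts these. Glyceraldehyde-3-phosphate dehydrogenase (GAPDH) then oxidises the aldehyde, phosphoglycerate mutase moves the phosphate group, and enolase forms phosphoenolpyruvate. In fruit, this route links imported and stored sugars to respiration, fermentation and organic acids.

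The names in the table fit a glycolytic set with 3 qualifications. LOC103930334 is called triosephosphate isomerase, chloroplastic-like, a plastid form. LOC103949095 is called NADP-dependent GAPDH-like, and the table places it in the aldehyde dehydrogenase family (Aldedh), to which the non-phosphorylating plant enzyme that makes NADPH belongs. LOC103939727 is called phosphoglycerate mutase-like protein 1, a name that does not by itself give the glycolytic activity. No phosphoglycerate kinase is among the 9 or among the other listed genes.

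Transcripts of 8 of the 9 genes were lower in boron pulp and 1 was higher. The abundant aldolase and GAPDH genes, cytosolic by name, and the enolase genes stood between 2.04 and 3.32 times lower in boron than in control libraries, and the NADP-dependent GAPDH-like gene stood 4.17 times higher. All 9 passed limma's test on log2(normalized count + 1) at a Benjamini-Hochberg adjusted p of 0.05, as did 99.2% of all listed genes, 26.2% lower and 73.0% higher. By the sign of the authors' deposited fold change, 26.7% of listed genes were lower and 73.3% higher. Because the authors had listed the genes for differing in this same contrast, these calls describe the 9 genes and test nothing, and no p-value is given as support. The groups did not overlap in 8 of the 9 genes (7 lower and 1 higher), as in 97.7% of listed genes, 25.7% lower and 72.0% higher.

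The median log2 fold change (boron over control) of the 9 genes was -1.41, where that of all listed genes was 1.62. The 12 other listed genes of the same enzyme steps had a median of 3.14, with 10 higher and 2 lower. The 9 were chosen with earlier results known, so their median describes the chosen set and not these enzyme steps as a whole. The 6 genes with a mean of at least 1000 normalized counts were all lower in boron pulp, in a class of 334 listed genes of which 57.2% were lower. Summed per kilobase of gene length, the 9 genes reached 25597, 24662 and 22556 normalized counts per kilobase in the boron libraries and 60378, 64442 and 66011 in the control libraries. Every control sum was far above every boron sum, and the ratio of the group means was 2.62. Of all reads in listed genes, the 9 held 2.11% ± 0.141 with boron and 5.02% ± 0.207 without (SD, n = 3). In bulk RNA of this kind, fewer cells of a type and less RNA per cell cannot be told apart.

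**Figure D1:**
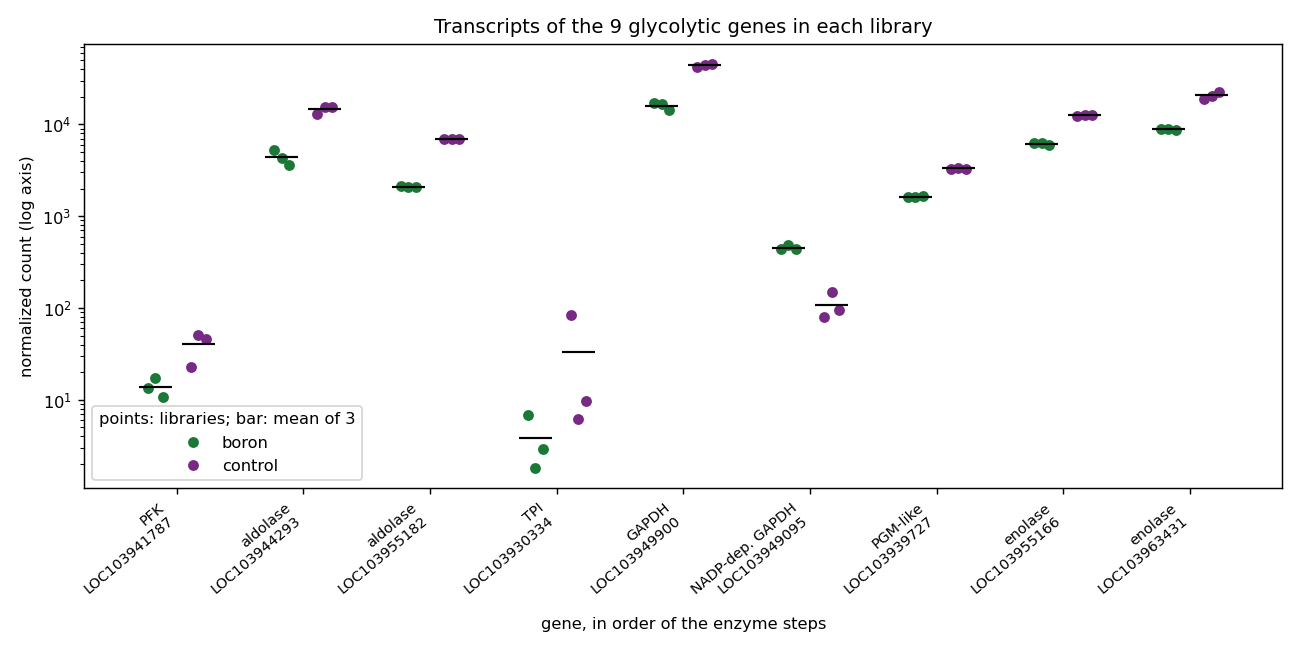
Normalized counts (log axis) of the 9 glycolytic genes in each library, in the order of the enzyme steps, with boron libraries in green, control libraries in purple and the mean of 3 libraries as a bar. The control points lie above the boron points for 7 genes, below them for the NADP-dependent GAPDH-like gene, and overlap them for triosephosphate isomerase, where control library 1 stands at 84.8 and boron library 1, at 6.78, lies above control library 2, at 6.24.

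The 6 libraries held between 1914312 and 2056668 reads in listed genes. Libraries of a group differed from each other by more than sampling noise, with a chi-square per degree of freedom of 3.597 to 8.036, so none was counted as a repeat of another. Among other listed transcripts, all 19 chlorophyll a-b binding protein genes were higher in boron pulp, with a summed level of 5345 to 5649 normalized counts per kilobase against 470 to 539 in control. All 5 listed peel markers (lipid-transfer proteins, 1827 to 2027 against 317 to 404) and all 5 vascular markers (435 to 536 against 158 to 180) were higher too, while 5 of 6 seed markers were higher and 1 was lower (1301 to 1382 against 1300.2 to 1437). Of all listed genes, 73.0% passed limma's test as higher and 26.2% as lower. Across a whole group, no chlorophyll a-b binding, vascular or seed marker was at 0, and 1 peel marker was at 0 in control. No list of markers for pulp itself was used. These markers of other tissues were sought only among genes listed for differing between the groups, so they cannot check the tissue label. The part of tissue make-up in the glycolytic values was not tested.

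At the entry step, the ATP-dependent 6-phosphofructokinase 6-like gene LOC103941787 (scaffold NW_008989360.1, 13765 to 18839, minus strand) was a low transcript. Its normalized counts were 13.6, 17.1 and 10.8 in boron libraries and 22.9, 51.0 and 46.4 in control libraries, from 44 reads in all boron and 115 reads in all control libraries. All boron values lay below all control values, although control library 1 lay closer to the boron range than to the other control libraries. The log2 fold change was -1.41 with an SE of 0.39, and -1.53 in the authors' deposited table. The gene length in the table is 397 bases over a span of 5075 bases.

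Cytosolic aldolase was represented by LOC103944293 (fructose-bisphosphate aldolase 1, NW_008988064.1, 201950 to 204939, minus strand) and LOC103955182 (cytoplasmic isozyme, NW_008988161.1, 249948 to 252672, plus strand). LOC103944293 had 5269, 4333 and 3598 normalized counts in boron and 12908, 15448 and 15449.8 in control libraries. LOC103955182 had 2133, 2055 and 2058 in boron and 6887, 6889.7 and 6923 in control libraries.

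Both aldolases stood lower by nearly the same factor, 3.32 and 3.31, with log2 fold changes of -1.74 (SE 0.12) and -1.73 (SE 0.055). They differed in how far the libraries of a group spread. The coefficient of variation was 19.03% in boron and 10.05% in control libraries for LOC103944293, and 2.12% and 0.293% for LOC103955182. Their balance was alike in both groups: LOC103944293 made up 66.4% ± 3.86 of the summed per-kilobase level of the pair in boron and 66.6% ± 2.29 in control libraries (SD, n = 3), with overlapping libraries.

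Triosephosphate isomerase, chloroplastic-like (LOC103930334, NW_008988508.1, 185747 to 189200, minus strand) was the least abundant of the 9. It had 7, 2 and 3 reads in the boron libraries and 85, 6 and 9 in the control libraries, or 6.78, 1.80 and 2.94 against 84.8, 6.24 and 9.72 normalized counts. Control library 1 alone held most of its control reads, and boron library 1 lay above control library 2, so the groups overlapped. The log2 fold change of -2.09 (SE 0.85) became -0.997 without control library 1, where the gene did not pass limma's test, nor did it without boron library 2 or boron library 3. The authors' deposited table gives it a log2 fold change of -3.14.

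The cytosolic GAPDH gene LOC103949900 (NW_008988106.1, 868911 to 872069, plus strand) was the most abundant of the 9 and the 11th of all listed genes by mean level per kilobase. It had 16891, 16549 and 14423 normalized counts in boron libraries and 42682, 44737 and 45241 in control libraries. The highest boron library was far below the lowest control library, with a log2 fold change of -1.47 (SE 0.060). This gene contributed 41.2% ± 1.01 of the summed level of the 9 genes in boron and 43.6% ± 0.679 in control libraries (SD, n = 3).

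The NADP-dependent GAPDH-like gene LOC103949095 (NW_008988100.1, 472366 to 476098, minus strand) went the other way. Its normalized counts were 435, 479.6 and 434 in boron libraries and 80.8, 149 and 94.0 in control libraries. Every boron library was higher than every control library, with a log2 fold change of 2.10 (SE 0.20). The gene thus stood 0.48 above the median of all listed genes, 1.62, most of which were higher too. Against the cytosolic gene it remained rare: per kilobase, LOC103949900 stood 52.0, 46.3 and 44.6 times above it in boron libraries and 708, 403 and 645 times above it in control libraries. These ratios are taken within a library and do not depend on size factors.

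Phosphoglycerate mutase-like protein 1 (LOC103939727, NW_008989096.1, 56289 to 62535, plus strand) had 1634, 1613 and 1656 normalized counts in boron libraries and 3285, 3364 and 3304 in control libraries. The spread within each group was small, with coefficients of variation of 1.31% and 1.24%, and the groups were well apart. Its log2 fold change of -1.02 (SE 0.060) made it the gene nearest to the authors' limit for listing: their deposited table gives it -1.02, and the smallest absolute value among all listed genes is 1.00. Genes of these steps with a smaller change lie outside that table and were not analysed here.

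Enolase was represented by LOC103955166 (NW_008988161.1, 112583 to 116269, plus strand) and LOC103963431 (NW_008988286.1, 466619 to 471600, minus strand). LOC103955166 had 6269, 6192 and 5981 normalized counts in boron and 12246, 12567 and 12783 in control libraries. LOC103963431 had 8937, 8895 and 8633 in boron and 19111, 20522 and 22486 in control libraries.

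Both enolases fell, with log2 fold changes of -1.03 (SE 0.048) and -1.23 (SE 0.060). LOC103963431 was the more abundant in every library, but by a smaller margin in boron pulp. The per-kilobase level of LOC103963431 over that of LOC103955166 was 1.45, 1.46 and 1.47 in boron and 1.58, 1.66 and 1.79 in control libraries, with no overlap between the groups. How reads that match both enolases, or both aldolases, were assigned is not stated, so the values of single copies are uncertain. Overlapping and antisense genes are uncertain too, since the labels name no strand setting.

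Ordered by level per kilobase in control libraries, the genes ran from GAPDH (27724 ± 850.0 normalized counts per kilobase, SD, n = 3) through enolase LOC103963431 (12311 ± 1008), aldolase LOC103944293 (9550 ± 959), enolase LOC103955166 (7341 ± 158) and aldolase LOC103955182 (4759 ± 14.0) to phosphoglycerate mutase-like protein 1 (1749 ± 21.7). No libraries of neighbouring genes overlapped in that stretch. Phosphofructokinase (101 ± 37.9), NADP-dependent GAPDH-like (50.4 ± 16.9) and triosephosphate isomerase (24.9 ± 32.9) followed with overlapping libraries.

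In boron libraries the order by mean level per kilobase changed within 2 pairs. Enolase LOC103955166, at 3504 to 3673 normalized counts per kilobase, stood above aldolase LOC103944293, at 2353 to 3446, whereas in control libraries that aldolase had stood above it. NADP-dependent GAPDH-like, at 203 to 224, likewise stood above phosphofructokinase, at 27.2 to 43.1. The change in this pair rests on the deposited length of 397 bases for phosphofructokinase. In normalized counts, NADP-dependent GAPDH-like stood above phosphofructokinase in control libraries too (80.8, 149 and 94.0 against 22.9, 51.0 and 46.4). The cytosolic GAPDH gene remained the highest and triosephosphate isomerase the lowest.

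The second deposited table gives every gene a signed score, whose formula is not given in the sources used here and whose sign was that of the fold change in all 4291 listed genes. It comes from the same contrast and places the 9 genes among all 42194 scored genes, of which 10.2% are in the first table. For the 7 lower genes other than triosephosphate isomerase, between 0.728% and 3.30% of scored genes had a still lower score, with LOC103944293 and LOC103955182, the aldolases, lowest (scores of -2.68 each) and phosphofructokinase highest (-1.44). Triosephosphate isomerase had a score of -0.63, and 13.4% of scored genes were lower. NADP-dependent GAPDH-like scored 2.71, with 2.62% of scored genes above it.

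The first table holds 17 further genes of glycolysis by their descriptions. Of these 17, 12 were higher and 5 lower in boron pulp, all past limma's threshold and with no overlap between groups, a split near that of all listed genes (73.0% higher and 26.2% lower). Taking all 26 together, 13 were higher and 13 lower. With TMM scaling over the listed genes, 10 of the 26 passed as higher and 13 as lower, where the shares of listed genes were 33.4% and 28.9%. Of the 17, 12 belong to the same enzyme steps as the 9 genes, 10 of them higher and 2 lower. These 12 summed to 1177 ± 22.9 normalized counts per kilobase in boron and 646 ± 67.2 in control libraries (SD, n = 3), far below the sums of the 9 genes in both groups.

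**Figure D2:**
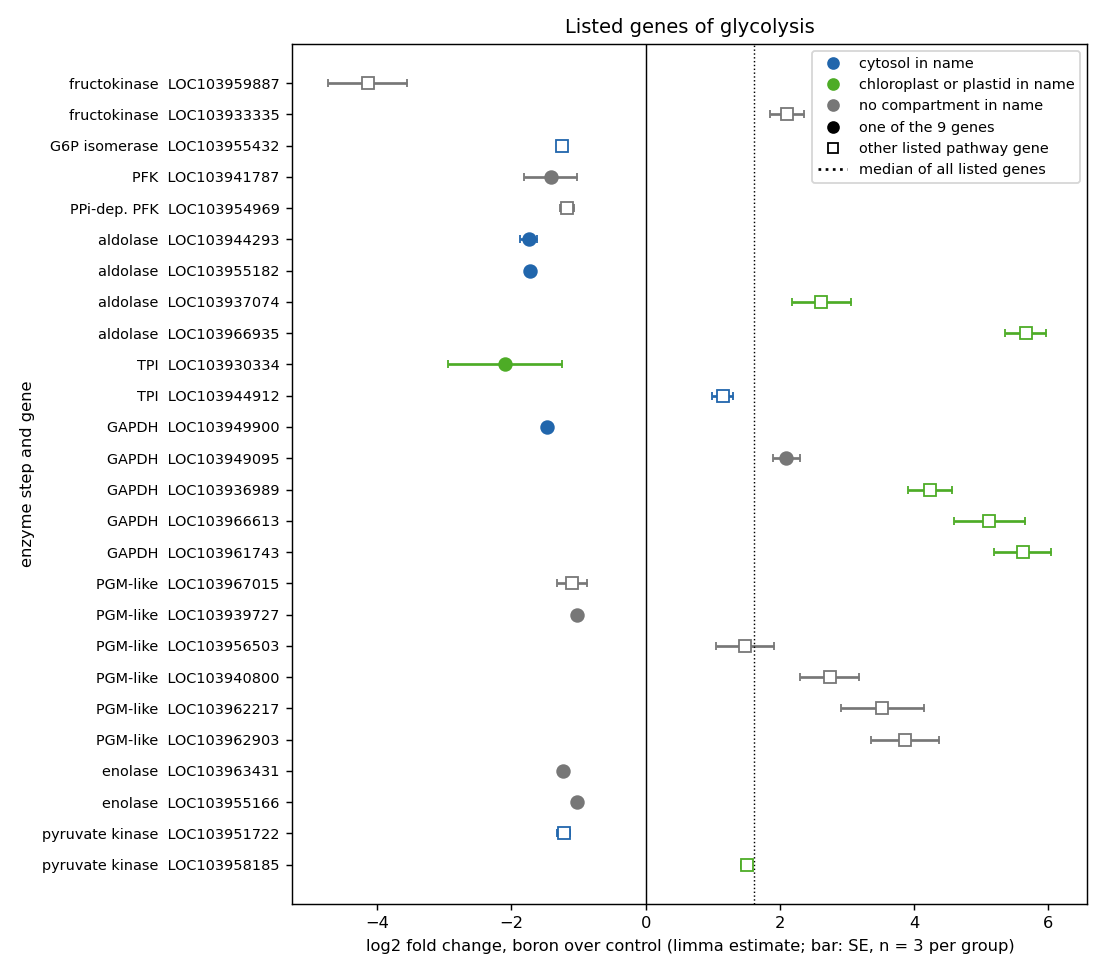
Log2 fold change (boron over control, limma estimate with its SE, 3 libraries per group) of the 26 listed genes of glycolysis, ordered by enzyme step. Filled circles are the 9 genes and open squares the 17 others, coloured by the compartment in the gene's name, and the dotted line is the median of all listed genes at 1.62. Blue cytosol-named genes lie mostly left of 0 and green chloroplast-named genes mostly right of it, with triosephosphate isomerase the exception in both colours.

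Of 6 genes with a cytosolic or cytoplasmic name, 5 fell and 1 rose, where 26.2% of listed genes fell and 73.0% rose. Among the 334 listed genes with a mean of at least 1000 normalized counts, 57.2% were lower. Of the 6 cytosol-named genes, the pyruvate kinase and the triosephosphate isomerase lie outside that class. Beside the aldolases and GAPDH, a cytosolic glucose-6-phosphate isomerase-like gene (LOC103955432), for the step before phosphofructokinase, fell from 10208 ± 308 to 4304 ± 63.6 normalized counts. Cytosolic pyruvate kinase 1-like (LOC103951722), for the step after enolase, fell from 1255 ± 38.3 to 540.2 ± 55.0. The exception was cytosolic triosephosphate isomerase (LOC103944912), at 366 ± 10.8 in boron and 167 ± 34.4 in control libraries (SD, n = 3). Its log2 fold change of 1.15 turned to -0.29 with TMM scaling and to -0.24 with DESeq2-type scaling and stayed higher with quantile normalization (0.40). These scalings were made over listed genes only, whose median went from 1.62 to 0.22 with TMM and to 0.26 with DESeq2-type scaling. By itself such a shift cancels a rise of 1.15, so these scalings cannot decide the direction of this gene.

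Of 7 genes with a chloroplast or plastid name, 6 rose and 1, the triosephosphate isomerase described above, fell, where 73.0% of listed genes rose and 26.2% fell. Among the 6, chloroplastic-like aldolase 1 (LOC103937074, named here for this), did not pass with quantile normalization (log2 fold change 0.79). Chloroplastic aldolase 1 (LOC103966935), an enzyme of the Calvin cycle, rose from 5.25 ± 2.29 to 301 ± 5.13 normalized counts. Chloroplastic GAPDH A (LOC103936989), a subunit of the photosynthetic enzyme, rose from 12.7 ± 5.71 to 239.8 ± 6.23. Chloroplastic GAPDH B (LOC103961743), named here after its values were seen, ranged from 41.5 to 58.2 normalized counts with boron and had 0 reads in every control library. The chlorophyll a-b binding protein transcripts given above stood higher in the same libraries, and their part in these values was not tested. Plastidial pyruvate kinase 2-like (LOC103958185) had 1562 ± 73.5 normalized counts in boron and 549.6 ± 13.3 in control libraries. Its log2 fold change of 1.505 became 0.07 with TMM and 0.11 with DESeq2-type scaling and no longer passed, while with quantile normalization it was 1.41 and passed. The TMM and DESeq2-type scalings, made over listed genes only, take away a rise near the listed median by themselves, so the lost call does not decide its direction.

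Of 13 genes with no compartment in the name, 6 rose and 7 fell, against the same shares of listed genes. Among the 6, phosphoglycerate mutase-like protein 4 (LOC103956503, named here for this), did not pass with TMM (log2 fold change 0.11), DESeq2-type (0.16) or quantile scaling (-0.042). The beta subunit-like gene of pyrophosphate-dependent phosphofructokinase (LOC103954969), a plant enzyme that works on the same substrate with pyrophosphate, fell from 749 ± 60.3 to 332 ± 18.1 normalized counts. Probable fructokinase-7 (LOC103933335), which phosphorylates fructose, rose from 33.1 ± 9.997 to 142 ± 11.6. The other listed fructokinase, probable fructokinase-5 (LOC103959887), went down, with a log2 fold change of -4.14 (SE 0.59). This low transcript had 3 reads in all boron and 78 in all control libraries, and is named here for its opposite direction. Genes named for phosphoglycerate mutase moved both ways: a 2,3-bisphosphoglycerate-dependent form (LOC103967015) fell from 106 ± 9.44 to 49.7 ± 11.04, and the mutase-like protein AT74 (LOC103962903) rose from 4.42 ± 3.03 to 67.3 ± 3.42. No listed gene was described as hexokinase, phosphoglycerate kinase, fructose-1,6-bisphosphatase or phosphoenolpyruvate carboxykinase. The names of genes outside the table were not analysed here.

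The 7 listed genes of pyruvate decarboxylase, alcohol dehydrogenase and plant cysteine oxidase were all lower in boron pulp, as were 26.2% of listed genes. The 7 genes serve fermentation and the response to low oxygen. Their summed level was 4459 to 4833 normalized counts per kilobase in boron and 25999 to 27496 in control libraries. The part of oxygen supply in the glycolytic values was not tested.

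The make-up of a step was followed as shares of the summed per-kilobase level within each library, which do not depend on size factors. For the listed aldolases, chloroplast-named genes held 5.03% ± 0.598 in boron and 0.0475% ± 0.0184 in control libraries (SD, n = 3). For the listed GAPDH genes the shares were 2.62% ± 0.174 and 0.0423% ± 0.0191. In both steps the genes with a cytosolic name held most of the listed level in every library.

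For the listed pyruvate kinases, the plastid-named gene held 69.8% ± 2.72 in boron and 25.9% ± 1.05 in control libraries, so the more abundant gene of the pair changed. Within the enolases, LOC103963431 held 59.3% ± 0.152 in boron and 62.6% ± 1.41 in control libraries. In the triosephosphate isomerases the chloroplast-named gene held 0.863% ± 0.606 in boron and 12.0% ± 14.0 in control libraries, a mean that rests on control library 1 at 28.2%. Only listed genes enter these shares, and copies that the authors did not list are missing from them.

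**Figure D3:**
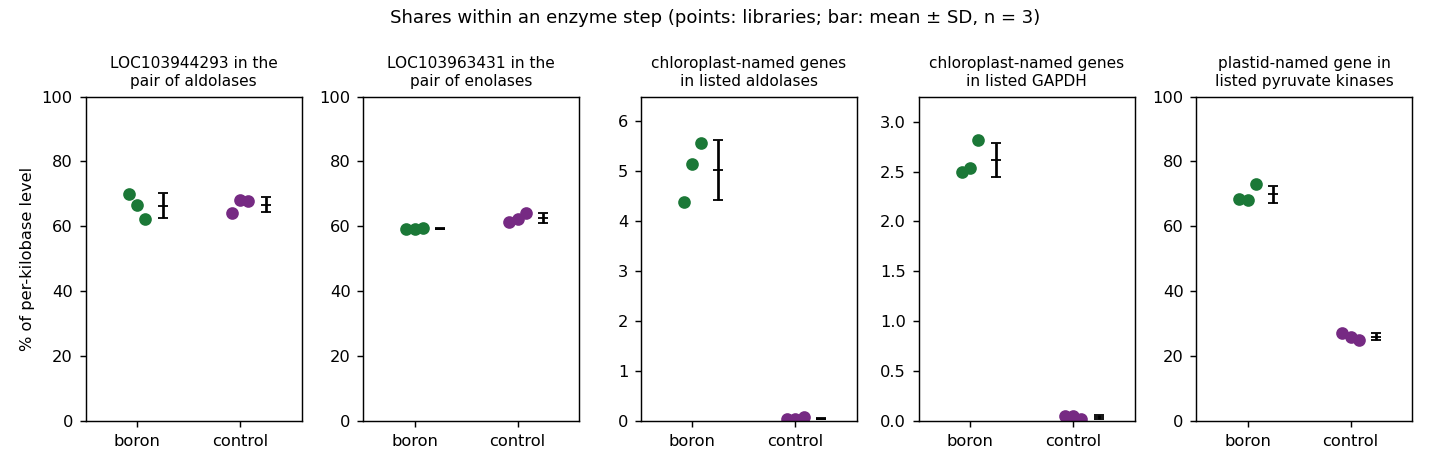
Share (%) of the summed per-kilobase level of an enzyme step held by the gene or genes in each panel title, with libraries as points (boron green, control purple) and mean ± SD (n = 3) as bars, and with a vertical scale of its own in each panel. The aldolase pair keeps about the same balance (66.4% and 66.6%), the enolase pair shifts slightly (59.3% and 62.6%), and the plastid-named pyruvate kinase goes from 25.9% in control to 69.8% in boron libraries.

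The size of all these differences depends on how libraries are scaled. The table holds listed genes only, and most of them are higher in boron pulp. Scaling over the listed genes moved the median log2 fold change of those genes by -1.40 with TMM, by -1.35 with DESeq2-type size factors and by -1.25 with quantile normalization. Shifts of this size can cancel a listed rise by themselves, so a rise lost or reversed under them leaves the direction of that gene undecided. All 9 genes kept their direction and passed limma's threshold under each of these scalings, 8 lower and 1 higher. TMM and DESeq2-type scaling moved fold changes down, so they could not have turned the 8 lower genes. Of all listed genes, 33.4% passed as higher and 28.9% as lower with TMM, 34.6% and 28.3% with DESeq2-type scaling, and 35.6% and 26.7% with quantile normalization. The cytosolic GAPDH gene LOC103949900 went from -1.47 to -2.91 with TMM and to -1.23 with quantile normalization. The NADP-dependent gene LOC103949095 went from 2.10 to 0.67 and 1.33.

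**Figure D4:**
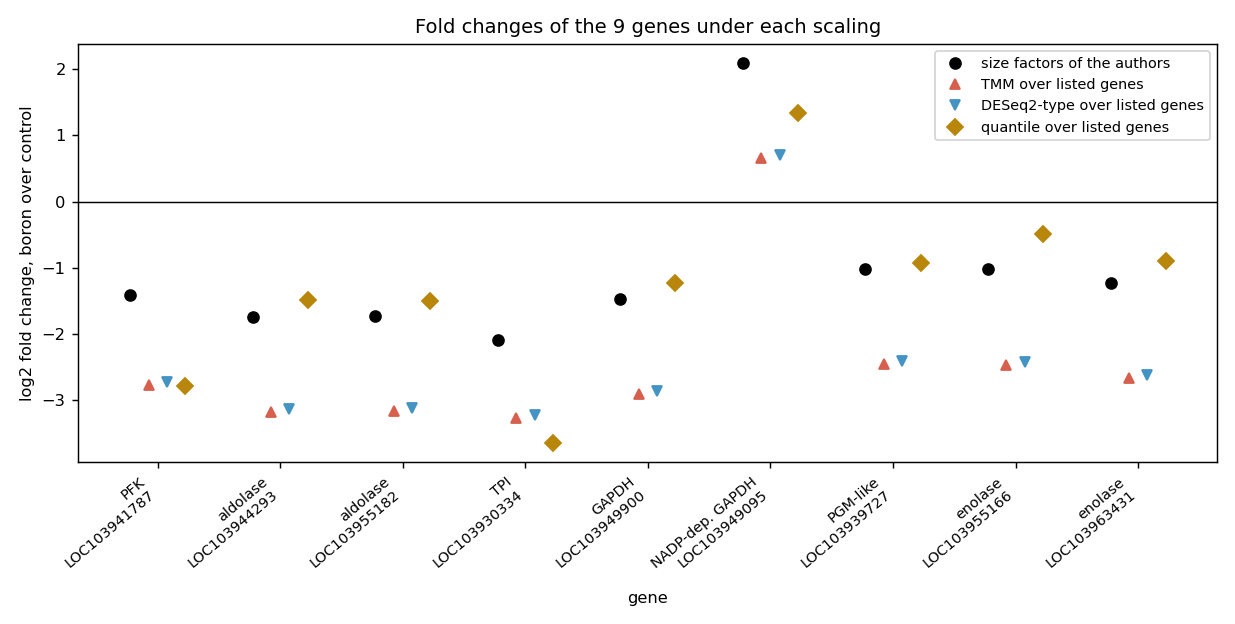
Log2 fold change (boron over control) of the 9 genes with the size factors of the authors (black circles) and with TMM (red triangles), DESeq2-type (blue inverted triangles) or quantile scaling (gold diamonds) over the listed genes. The 8 lower genes stay below 0 and LOC103949095 stays above 0 under every scaling, with its lowest value, 0.67, under TMM.

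Some contrasts between steps hold without any scaling. The per-kilobase level of GAPDH (LOC103949900) over that of enolase LOC103955166 was 2.88, 2.86 and 2.58 in boron and 3.73, 3.81 and 3.79 in control libraries. No boron library reached the control range, so the GAPDH transcript was reduced by more than this enolase transcript.

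The listed genes whose pattern was most like that of the leading members were sought among 1685 genes averaging at least 100 normalized counts, by the Euclidean distance of centred log2 values over the 6 libraries. For GAPDH (LOC103949900) they were LOC103941122 (myosin-10-like, distance 0.0604), LOC103926949 (isocitrate dehydrogenase [NADP], 0.0710) and LOC103943365 (polyadenylate-binding protein-interacting protein 12, 0.115). For enolase LOC103963431 they were LOC103935619 (probable uridine nucleosidase 2, 0.0953), LOC103962879 (bifunctional 3-dehydroquinate dehydratase/shikimate dehydrogenase, 0.106) and LOC103932694 (probable aminotransferase TAT2, 0.107). The other glycolytic genes were not among the nearest. The closest of the 9 to GAPDH was enolase LOC103963431 at place 103, and the closest to that enolase was LOC103955166 at place 116. All genes searched were listed for differing between the groups, so this distance largely follows how near the fold changes are. The 3 nearest to GAPDH (log2 fold change -1.47) had -1.48, -1.47 and -1.55, and the enolase at place 103 had -1.23.

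The 9 genes lie on 8 scaffolds. Enolase LOC103955166 and aldolase LOC103955182 share scaffold NW_008988161.1 at a distance of 133678 bases, with 3 other listed genes between them. The nearest listed neighbour could be found for 7 of the 9 genes, and 6 of those neighbours were higher in boron pulp and 1 was lower, near the split of all listed genes (73.3% higher and 26.7% lower). The neighbour nearest to GAPDH, LOC103949899 (uncharacterized, 1860 bases away), had a log2 fold change of 1.27. Positions are those in the deposited table, whose genome build is not given in the sources used here.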

How the data were processed

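RNA of fruit pulp was sequenced in 3 boron and 3 control libraries. HISAT2 is the only tool named, per the submitters' processing notes; the labels state no counter, genome build, strand setting or test. Per the file headers, the first table gives for 4291 genes a value per library, group means, a log2 fold change, a p-value before and after adjustment, all by the authors, with a description and a gene length. The deposited library values are a normalized signal: within a library all are whole multiples of 1 step (100.0% within a tolerance of 0.001), that is, counts divided by a size factor (0.926 to 1.11). In control library 1 the step is too close to 1 for the automatic check of this reading, which the other 5 libraries pass; its reads were recovered in the same way. The second deposited table gives a score by the authors for 42194 gene IDs with no names.

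Genes were tested over the whole first table with limma 3.58.1 (trend, robust) on log2(normalized count + 1), adjusted by Benjamini-Hochberg, at a threshold of 0.05; fold changes on this scale understate those of low genes. The table holds only genes with an absolute authors' log2 fold change of at least 1.00 and an adjusted p of at most 0.0499, so no result for unlisted genes exists here. Levels between genes are normalized counts per kilobase of the deposited length. Alternatives were pseudocounts of 0.5 and 5, 3 scalings over the listed genes, a mean of at least 100 normalized counts, limma without trend and robust, edgeR 4.0.16 (quasi-likelihood) and DESeq2 1.42.0 on the recovered reads, a replicate block and leaving out each library. The limma fit was also run on simulated counts in which a minority of genes changed, up and down alike. In these data nearly all listed genes differ and most are higher, so that run does not check the calibration here.

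The members and lists were chosen with earlier results of these data known. All 9 genes are named, as are the 10 most abundant other listed genes of the pathway and the 3 genes most like each of the 2 most abundant members. A planned look at pathway genes outside the first table was not possible, since the score table has no names. Peel markers matched by description were all lipid-transfer proteins. Labels do not say whether libraries came from separate trees or fruits, so p-values cover only the spread between these libraries.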

Additional observations from a re-analysis of the deposited data

How the results depend on the processing

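Of the alternative fold changes of the 9 genes, 137 kept their direction and side of the threshold, and 5 lost the call, all of them of triosephosphate isomerase LOC103930334 (12 reads in boron, 100 in control): limma without trend and robust, pseudocount 5, and without boron library 2, boron library 3 or control library 1, with limma adjusted p from 0.0826 to 0.120. With 1 library left out in turn, 7 to 8 of the 9 genes passed limma's test as lower and 1 as higher. Of the listed genes, 3095 to 3109 passed as higher and 1111 to 1119 as lower. The edgeR and DESeq2 tests on recovered reads each called 3146 listed genes higher and 1145 lower, and all 9 members.

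Listed genes called higher numbered 3131, but 1486 with DESeq2-type scaling, 1433 with TMM, 1527 with quantile normalization and 1049 (with 635 lower) at a mean of at least 100. The log2 ratio of the summed level went from -1.39 to -2.83 (TMM), -2.79 (DESeq2-type) and -1.09 (quantile). Among other pathway genes, LOC103944912 reversed (-0.29 with TMM, -0.24 with DESeq2-type) and LOC103956503 reversed with quantile normalization (-0.042). With chloroplast-named genes left out, 7 pathway genes were listed as higher and 12 as lower, where 73.3% of listed genes were higher and 26.7% lower. The cause was not tested.

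With quantile normalization, which changes ratios within a library, shares in boron and control were 3.69% and 0.134% (chloroplast-named aldolases), 98.4% and 99.7% (LOC103949900), 1.59% and 0.279% (LOC103949095), 1.86% and 0.0985% (chloroplast-named GAPDH), 41.9% and 35.4% (LOC103955166), 58.1% and 64.6% (LOC103963431), and 73.4% and 28.0% (plastid-named pyruvate kinase). Not divided by length, they were 97.3% and 99.8% (LOC103949900), 2.75% and 0.243% (LOC103949095), and 74.3% and 30.5% (pyruvate kinase), and in boron 2.39% (chloroplast-named GAPDH), 41.1% (LOC103955166) and 58.9% (LOC103963431).

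Same-numbered libraries did not deviate together (correlations of -0.013, 0.026 and -0.039), so the number was not taken as a pairing. With the replicate block, 8 members passed as lower and 1 as higher, and 3127 listed genes passed as higher and 1131 as lower. Low counts limit phosphofructokinase and triosephosphate isomerase.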
